A study of Mus musculus with 6 samples.

Results

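The genes described here are 31 that mark lymphocytes: 24 of T cells and natural killer (NK) cells and 7 of B cells. They were taken by name, as every non-control probe on the array whose deposited gene name is one of the 31, which gives 46 probes of 41174 and 73 spots of 43379. After the filter on dim probes, 26 of the 31 genes were tested (19 of the 24 T and NK genes and all 7 B genes), among 20818 genes in all. Expression was measured in the esophagus of adult C57BL/6J mice on 6 arrays, each with 1 sample in the red dye Cy5 and, in the green dye Cy3, a universal reference made from the RNA of 11 mouse cell lines in culture. The labels give 3 arrays as WT and 3 as Pax9 knockout (K5Cre;Pax9 loxP/loxP), called WT-labelled and KO-labelled arrays here. In the knockout genotype the keratin 5 promoter drives Cre, and so deletion of floxed Pax9, in basal cells of the epithelium and their descendants. The labels name the source as epithelium and the extracted material as esophageal tissue. They describe the replicates as biological, with nothing on the animals behind them. A p-value therefore weighs a group difference against the spread of these samples within their groups.

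T cells read antigen through a receptor whose signal leaves by the CD3 chains. Their cytoplasmic tails carry the ITAM, a motif with a pair of tyrosines that the kinase Lck phosphorylates, so that the kinase Zap70 docks there and phosphorylates the scaffold Lat. CD4 and CD8 are coreceptors that bring Lck to the complex, and CD2, CD5, CD6, CD27, CD28, ICOS and CTLA4 tune the response. Cytotoxic T cells and NK cells kill with granzymes and perforin, and B cells signal through CD79A and CD79B. The esophageal lining is a layered squamous epithelium in which lymphocytes are a minority, among and beneath the keratinocytes.

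A set of 4 probes is shown because the main results rest on them: the probes of Cd3d, Cd3g and Zap70, which were lower on KO-labelled arrays, and the Cd4 probe, whose copies on the array did not read alike. Each is the deposited sequence of 60 bases, 5′ to 3′, and capitals in the Cd3d probe mark the 45 bases that encode the ITAM.
Cd3d: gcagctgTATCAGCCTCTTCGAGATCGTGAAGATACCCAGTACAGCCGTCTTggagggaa
Cd3g: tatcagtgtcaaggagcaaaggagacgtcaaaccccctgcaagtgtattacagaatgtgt
Zap70: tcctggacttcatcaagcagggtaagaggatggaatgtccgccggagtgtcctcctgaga
Cd4: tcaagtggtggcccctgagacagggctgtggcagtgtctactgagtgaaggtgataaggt
The deposited positions, on mouse build mm9, are chr9:44794171-44794402 on the plus strand for Cd3d, chr9:44781716-44782300 on the minus strand for Cd3g, chr1:36838210-36838269 on the plus strand for Zap70 and chr6:124817706-124817765 on the minus strand for Cd4. The Cd3d and Cd3g positions span 232 and 585 bases for a 60-base probe, so each of these alignments jumps over a gap. The ITAM was searched for on the printed strand, in every reading frame without a stop codon. It was found in 2 of the 46 probes, those of Cd3d and Cd247 (which encodes the zeta chain), and in 32 of all 41174 probes (0.08%).

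Values below are log2 ratios of esophagus over reference within an array, and a difference is that of KO-labelled minus WT-labelled arrays. Pax9 itself did not read lower on KO-labelled arrays. Its log2 ratio was 6.28, 6.13 and 5.70 on WT-labelled arrays and 6.81, 6.78 and 6.72 on KO-labelled arrays (difference 0.73, SE 0.18, adjusted p = 0.071 in limma). The targeted gene thus shows no fall that would bear out its label, so every direction below rests on the labels alone. The reference for the Pax9 probe also read 0.43 higher on the log2 scale on KO-labelled arrays, and its part was not tested. Neither the labels nor the files say which exons the probe and the deletion cover. All arrays of a group shared 1 slide, so slide and genotype cannot be told apart. Between 67.3% and 77.3% of probes had Cy5 well above background, no spot was saturated, and squamous keratin and muscle genes were both bright. The number of arrays limits the precision, since permuting 3 against 3 arrays exactly gives no p under 0.1.

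Among the T and NK genes, 3 fell and 1 rose. Zap70, Cd3d and Cd3g fell by 1.09, 1.00 and 0.94 in turn on the log2 scale, and Cd5 rose by 1.93. The other 15 of the 19 tested genes missed the threshold of an adjusted p of 0.05 (limma, Benjamini-Hochberg over all tested probes). Of all 20818 genes, 4.84% passed it (2.83% higher and 2% lower), against 21.1% of the T and NK genes. The median difference was -0.33 over the 19 genes and 0.01 over all genes tested. It was -0.04 over all 24 genes without the filter on dim probes, -0.18 as a mean over probes and -0.13 without wild type replicate 3. Among the 7 B genes, Pou2af1 fell by 1.35, none rose, and the median difference was -0.29. The genes were listed with earlier results of these data known, so these counts and medians are descriptions of the lists. In bulk RNA, fewer cells of a type and less RNA per cell cannot be told apart.

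**Figure D1:**
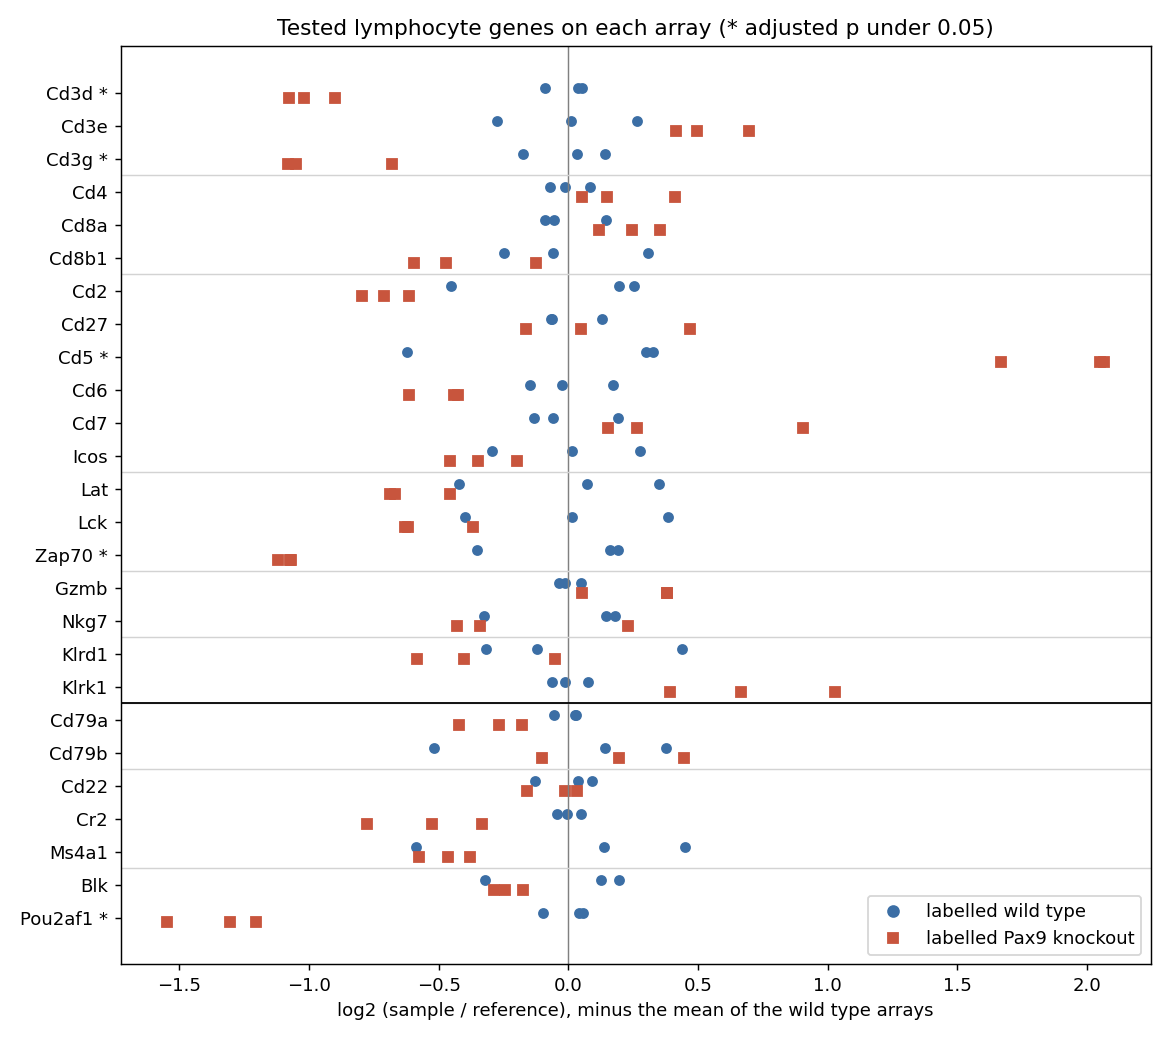
Each row is 1 of the 26 tested genes and each point 1 array (circles, WT-labelled; squares, KO-labelled), on a log2 axis set to 0 at the mean of the wild type arrays; lines part the functional groups, the black line parts T and NK genes (above) from B genes, and a star marks an adjusted p under 0.05. The squares of Cd3d, Cd3g, Zap70 and Pou2af1 lie wholly to the left of the circles, and those of Cd5 wholly to the right. In 13 of the 26 rows circles and squares do not overlap, where 32.2% of all genes were separated in this way. Gzmb, Klrk1 and Cd79a among the 13 passed the filter on dim probes only through the group where they read higher.

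Of the 4 CD3 chain genes, 2 fell, 1 missed the threshold and 1 was not tested. Cd3d encodes the delta chain, and its log2 ratio was 0.02, 0.17 and 0.15 on WT-labelled arrays and -0.91, -0.79 and -0.97 on KO-labelled arrays. All 3 knockout values lie below all wild type values, and the spread within each group was small (0.11 ± 0.08 and -0.89 ± 0.09, SD, n = 3 each), so that Cd3d fell by 1.00 (SE 0.14, adjusted p = 0.018 in limma). Cd3g encodes the gamma chain and read -1.72, -1.83 and -2.04 against -2.54, -2.91 and -2.94, again without overlap (difference -0.94, SE 0.17, adjusted p = 0.036). Cd3e encodes the epsilon chain, which pairs with both. Its log2 ratio lay the other way, 0.23, -0.02 and -0.30 on WT-labelled arrays and 0.67, 0.39 and 0.47 on KO-labelled arrays, a difference of 0.54 (SE 0.18) that missed the threshold (adjusted p = 0.14). A second Cd3e probe was not well above background on any array. The reference RNA, which is the same on all arrays, also read 0.71 higher for the tested Cd3e probe on the KO-labelled slide. For Cd3d and Cd3g the reference differed by -0.17 and -0.29. Each of these reference differences has the sign of the gene's own difference, and their part in the ratios was not tested. Cd247 could not be tested: its best probe was well above background on 2 arrays of each group.

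Cd3d and Cd3g are neighbours on chromosome 9 and are read in opposite directions from start sites 1355 bases apart in the RefSeq annotation (GRCm38.p6), with Cd3e next to Cd3d. Because both genes fell, the 250 bases before each start are shown, from RefSeq, with capitals for the ETS core motif GGAA on either strand.
Cd3d: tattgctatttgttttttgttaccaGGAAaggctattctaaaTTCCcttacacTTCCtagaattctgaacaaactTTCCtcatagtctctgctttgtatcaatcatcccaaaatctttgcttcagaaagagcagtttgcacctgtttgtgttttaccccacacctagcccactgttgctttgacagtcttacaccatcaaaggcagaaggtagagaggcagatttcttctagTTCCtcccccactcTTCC
Cd3g: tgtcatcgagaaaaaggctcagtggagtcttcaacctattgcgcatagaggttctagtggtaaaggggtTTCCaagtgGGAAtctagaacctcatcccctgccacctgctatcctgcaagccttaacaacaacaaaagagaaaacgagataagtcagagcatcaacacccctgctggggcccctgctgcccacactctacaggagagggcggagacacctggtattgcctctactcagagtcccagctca
These windows lie at chr9:44981536-44981785 on the plus strand and chr9:44980432-44980681 on the minus strand, in GRCm38.p6. The ETS core occurs 6 times in the Cd3d window and 2 times in the Cd3g window, but 93.4% of 32851 windows of this length hold it. A RUNX motif, TGTGGT on either strand, is in neither window and is in 14% of all windows. The table holds a promoter for 20 of the 31 genes. Of these, 7 of 16 T and NK genes (Gzma, Gzmb, Klrk1, Lck, Nkg7, Prf1 and Zap70) and none of 4 B genes have the RUNX letters. The octamer ATGCAAAT, the site of the factors that Pou2af1 binds, is in none of the 20 genes and in 1.6% of all windows.

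Of the kinases and the scaffold downstream of CD3, 1 of 3 passed the test. Zap70 read -1.17, -1.13 and -1.68 on WT-labelled arrays and -2.40, -2.39 and -2.44 on KO-labelled arrays. The knockout values are nearly equal, and the nearest wild type array, replicate 3, lies well above them (difference -1.09, SE 0.18, adjusted p = 0.028). For this probe the reference differed by -0.10. Lat had a difference of -0.60 (SE 0.22, adjusted p = 0.16), with groups that do not overlap, and Lck had a difference of -0.54 (SE 0.22, adjusted p = 0.2), with overlap. The reference differed by -0.35 for Lat and -0.36 for Lck.

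None of the coreceptor genes passed the test. Cd8b1, the CD8 beta chain, had a difference of -0.40 (SE 0.21, adjusted p = 0.29). Cd4 had a difference of 0.20 (SE 0.15, adjusted p = 0.46). Cd8a, the CD8 alpha chain, had 0.24 (SE 0.15, adjusted p = 0.37) with the brighter of its tested probes and -0.36 (SE 0.23, adjusted p = 0.39) with the other, so its probes differ in sign.

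The Cd4 and Cd8a values hide a pattern across the array. The Cd4 probe printed above is spotted 10 times, 6 times in rows 1 to 266 and 4 times in rows 267 to 532. In the upper rows the median background-subtracted Cy3 signal was 160 to 173 on WT-labelled arrays and 31.3 to 46.3 on KO-labelled arrays. In the lower rows this turned around, with 49.5 to 53.8 against 148 to 151. The same RNA on the same array thus gave a Cy3 signal that depended on the place of the spot, and the place that read high differed between the slides. Cy5 followed, so that the log2 ratio had a difference of -0.10 in the upper rows and 0.66 in the lower rows.

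The brighter Cd8a probe, with 5 spots in each range of rows, did likewise. Its Cy3 signal was 46.1 to 49.6 against 3.79 to 15.4 in the upper rows and 8.64 to 12 against 43.2 to 52.1 in the lower rows. The difference in log2 ratio was -0.16 above and 0.64 below. The third member with 10 spots, Cd28, had -0.04 in the upper and -0.07 in the lower rows. Its Cy5 was well above background on 1 array of each group, so this ratio could show little of a pattern in Cy5. Its slide difference in log2 Cy3 was -0.34 in the upper and 0.08 in the lower rows. Of the 245 probes on the array with at least 10 spots, 20 (8.16%) had slide differences in log2 Cy3 that stood over 1 apart between upper and lower rows, Cd4 and Cd8a among them, and the median gap was 0.43. The other 43 of the 46 probes have 1 spot each, so their place on the array cannot be checked in this way.

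**Figure D2:**
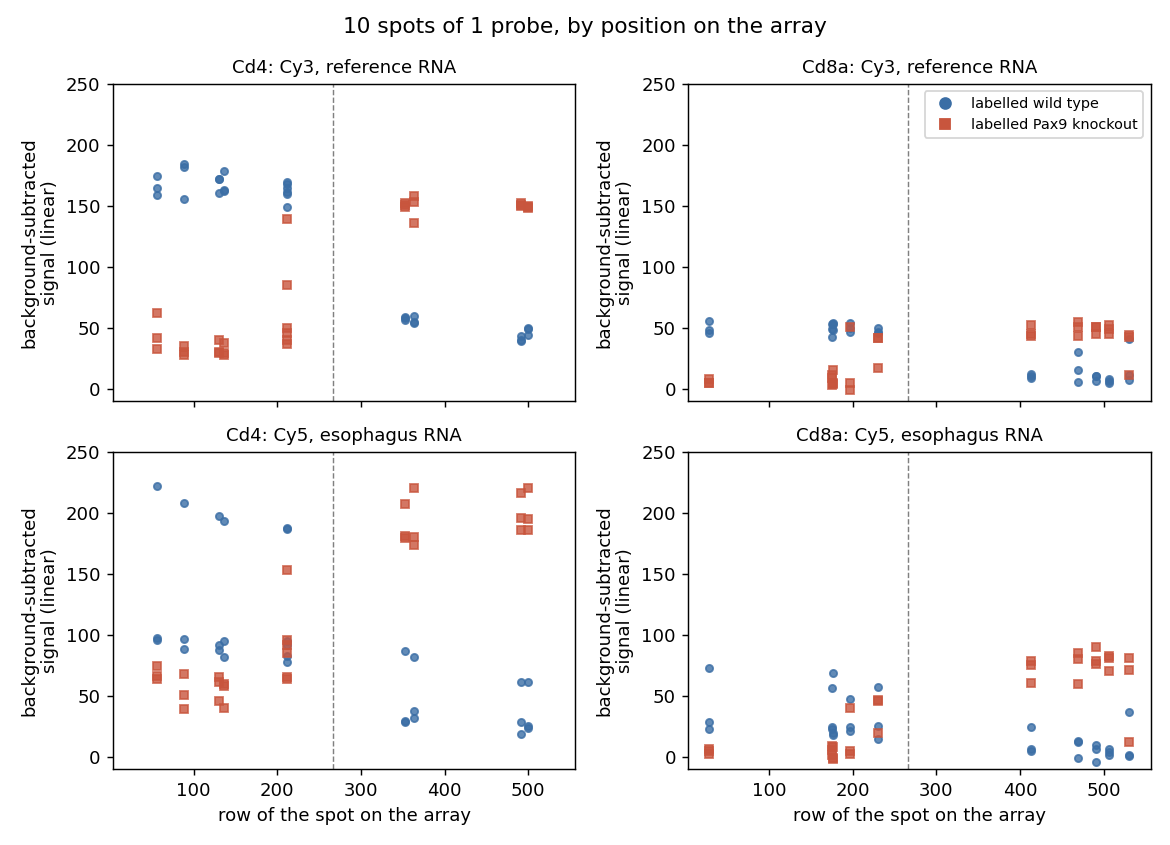
Background-subtracted linear signal of each spot of 1 Cd4 probe (left) and 1 Cd8a probe (right) in Cy3 (top) and Cy5 (bottom) against its row on the array, for all 6 arrays; the dashed line parts rows 1 to 266 from rows 267 to 532. In the upper rows most circles (WT-labelled) lie above the squares (KO-labelled), and in the lower rows most squares lie above the circles, in both dyes.

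Cd5 was the 1 gene of adhesion and costimulation to pass the test. It encodes a surface receptor of T cells and of some B cells that dampens antigen receptor signals. Its log2 ratio was 1.20, 0.25 and 1.17 on WT-labelled arrays and 2.54, 2.94 and 2.92 on KO-labelled arrays. All knockout values are higher than all wild type values, and wild type replicate 2 is the lowest array (0.87 ± 0.54 and 2.80 ± 0.23, SD, n = 3 each; difference 1.93, SE 0.28, adjusted p = 0.021). Its background-subtracted Cy5 signal was 1790, 992 and 5181 against 6438, 13051 and 13931, while the reference differed by -0.23 on the log2 scale. The other 18 tested T and NK genes together gave 1312, 1398 and 3038 against 1822, 2160 and 1933. On every array except wild type replicate 2, Cd5 alone thus read higher than their sum. Which cells carried the Cd5 RNA was not tested. The Cd5 probe lies at chr19:10792701-10792760 (mm9, minus strand).

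The neighbouring gene of the same receptor family, Cd6, missed the threshold. It read -1.53, -1.72 and -1.84 on WT-labelled arrays and -2.12, -2.14 and -2.31 on KO-labelled arrays with its brighter probe (difference -0.49, SE 0.15, adjusted p = 0.11). Its other tested probe had a difference of 0.19 (SE 0.19, adjusted p = 0.59), so the Cd6 probes differ in sign.

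The remaining genes of this group missed the threshold. Cd2, an adhesion receptor, had a difference of -0.71 (SE 0.22, adjusted p = 0.11), with groups that do not overlap and a reference 0.46 lower on the log2 scale. Icos, a costimulator of helper T cells, had -0.33 (adjusted p = 0.33) and -0.58 (adjusted p = 0.1) with its tested probes, for which the reference differed by -0.36 and by 0.73. Cd7 had a difference of 0.44 (SE 0.23, adjusted p = 0.29), beside a reference difference of 0.88. Cd27, a receptor of the TNF receptor family, had 0.12 (SE 0.19, adjusted p = 0.76). Cd28 and Ctla4, which compete for the same ligands, were not tested: the better Cd28 probe was well above background on 1 array of each group, and Ctla4 on none.

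Of the 4 genes of killing, 2 were tested and neither passed. Gzma, a granzyme, and Prf1, perforin, were not well above background on any array. Gzmb, another granzyme, was well above background on none of the WT-labelled arrays and on all 3 KO-labelled arrays. Its difference of 0.27 (SE 0.15) missed the threshold (adjusted p = 0.33), and no fold is given. Nkg7, a protein of cytotoxic granules, had a difference of -0.18 (SE 0.23, adjusted p = 0.68) with its tested probe, which was well above background on all 6 arrays. A second Nkg7 probe was not tested, being well above background on 2 WT-labelled arrays and on no KO-labelled array. Among the NK receptors, Klrd1 (CD94) had -0.35 (SE 0.24, adjusted p = 0.43). Klrk1 (NKG2D) read 0.25, 0.20 and 0.34 on WT-labelled arrays and 1.29, 0.66 and 0.93 on KO-labelled arrays. The groups do not overlap, but the difference of 0.70 (SE 0.19) missed the threshold (adjusted p = 0.086), the probe was well above background on 1 WT-labelled array, and the reference itself differed by 0.96. Gzmb and Klrk1, like Cd27 and Cd8a, passed the filter only through the KO-labelled arrays, and Klrd1, Cd79a, Cd22 and Blk only through the WT-labelled arrays.

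Among the B genes, Pou2af1, a coactivator of octamer-binding factors needed for germinal centres, was the clearest. Its log2 ratio was -3.61, -3.60 and -3.75 on WT-labelled arrays and -4.86, -5.20 and -4.96 on KO-labelled arrays. The groups are far apart for their spread (-3.66 ± 0.08 and -5.01 ± 0.18, SD, n = 3 each; difference -1.35, SE 0.15, adjusted p = 0.011). The reference differed by -0.42, and with Cy5 alone the difference was -1.70. With Cy5 alone 11 T and NK genes (4 higher and 7 lower) and 3 B genes (all lower) passed the threshold, against 28.6% of all genes (14.8% higher and 13.9% lower). Klrk1 among the 4 and Cd79a among the 3 passed the filter on dim probes only through the group where they read higher. Their reference differences were 0.96 and -0.83, and nothing is read from these counts. The Pou2af1 probe lies at chr9:51048108-51048167 (mm9, plus strand).

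Neither gene of the B cell receptor passed the test. Cd79b read from -5.13 to -4.23 on WT-labelled arrays and from -4.71 to -4.17 on KO-labelled arrays, with overlap (difference 0.18, SE 0.27, adjusted p = 0.73). Cd79a read 0.32, 0.24 and 0.33 on WT-labelled arrays and 0.03, 0.12 and -0.13 on KO-labelled arrays (difference -0.29, SE 0.14, adjusted p = 0.26). It was well above background on 1 KO-labelled array, and its reference difference of -0.83 was larger in size than its own. Its Cy3 signal was 74.3 to 80.9 on WT-labelled arrays and 5.32 to 30.4 on KO-labelled arrays.

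The surface proteins and the kinase of B cells missed the threshold. Cr2, the complement receptor of mature B cells and follicular dendritic cells, read 0.39, 0.30 and 0.34 on WT-labelled arrays and -0.18, 0.01 and -0.43 on KO-labelled arrays, without overlap (difference -0.55, SE 0.16, adjusted p = 0.1). Ms4a1 (CD20) had differences of -0.47 (adjusted p = 0.33) and -1.37 (adjusted p = 0.17) with its tested probes. Cd22, an inhibitory receptor, had -0.05 (adjusted p = 0.87). Blk, a kinase of the Src family, had -0.24 (adjusted p = 0.46) and was not well above background on any KO-labelled array, so no fold is given.

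The groups did not overlap in 10 of the 19 T and NK genes (6 lower and 4 higher on KO-labelled arrays) and in 3 of the 7 B genes, all lower, where 32.2% of all genes were separated in this way. Gzmb and Klrk1 among the 4 higher genes, and Cd79a among the B genes, passed the filter on dim probes only through the group where they read higher, so the tally is partly set by the filter and nothing is read from it. At an unadjusted p under 0.05 there were 10 T and NK genes and 2 B genes, against 24.7% of all genes. Of the 19 T and NK genes, 14 were well above background on all 6 arrays with the probe used, and their median difference was -0.45. For the 4 such B genes it was -0.51.

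The common reference offers a check of the slides, since its RNA is the same on all arrays. Cy3 alone differed between the slides at an adjusted p under 0.05 for 11 of the 19 T and NK genes and 5 of the 7 B genes, where 54% of all genes did. The size of the Cy3 difference was over 0.5 on the log2 scale for Cd3e, Cd7 and Klrk1 among T and NK genes and for Cd79a among B genes, against 19.6% of all genes. The 5 genes that passed the test are not over this size. Even so, Cy3 alone differed between the slides for Pou2af1, Cd3g and Cd5 (adjusted p of 0.0044, 0.011 and 0.02 in limma). For Cd3d and Zap70 it did not (0.2 and 0.15). The part of the reference in the log2 ratios was not tested. Over the 16 T and NK genes and 6 B genes with a Cy3 difference of at most 0.5, a restriction chosen after seeing the data, Cd5, Cd3d, Zap70 and Pou2af1 kept their calls, and Cd3g had an adjusted p of 0.057. The 5 genes meet this limit themselves, so their differences stay the same by construction. Only their errors and the adjustment could change, so this setting cannot check the reference.

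**Figure D3:**
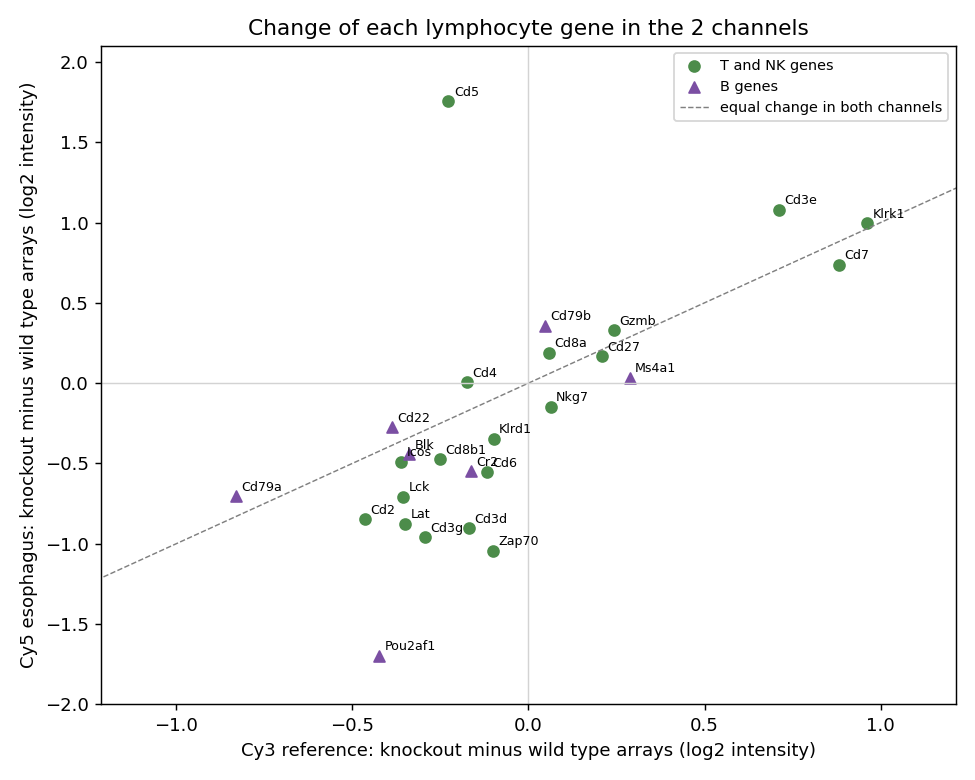
Difference of KO-labelled minus WT-labelled arrays in log2 intensity, with the Cy3 reference on the x axis and Cy5 esophagus RNA on the y axis, for each of the 26 tested genes (circles, T and NK; triangles, B); the dashed line marks an equal change in both. Klrk1, Cd7 and Cd79a lie near the dashed line at reference differences of 0.96, 0.88 and -0.83, while Cd5 (1.75 in Cy5), Pou2af1 (-1.70), Zap70 (-1.04), Cd3d (-0.90) and Cd3g (-0.96) lie far from it.

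None of these 5 calls held in every setting, although none changed direction in any of 20 alternative settings. Settings that changed only the filter, the brightness scale between arrays, the error model or the averaging over probes left these differences the same by construction. Their sign could not change there, and the series matrix repeats the deposited log ratio. Cd5 and Pou2af1 passed the threshold in 16 of the 20, Cd3d in 15, and Cd3g and Zap70 in 12. With each array centred on its median in place of loess, all 5 missed it (adjusted p of 0.079 for Cd5, 0.089 for Pou2af1, 0.12 for Cd3d, 0.19 for Cd3g and 0.087 for Zap70). All 5 also missed it without wild type replicate 1 (adjusted p of 0.063 to 0.13) and without knockout replicate 3 (0.071 to 0.16). Without knockout replicate 1, the 4 T and NK genes missed it (0.057 to 0.083) and Pou2af1 passed. Without wild type replicate 2, Cd5 and Pou2af1 passed. Without knockout replicate 2, Cd5, Cd3d and Pou2af1 did. Over all settings the adjusted p ranged from 0.0056 to 0.11 for Cd5, 0.0025 to 0.13 for Pou2af1, 0.0046 to 0.12 for Cd3d, 0.0055 to 0.19 for Cd3g and 0.0053 to 0.14 for Zap70.

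**Figure D4:**
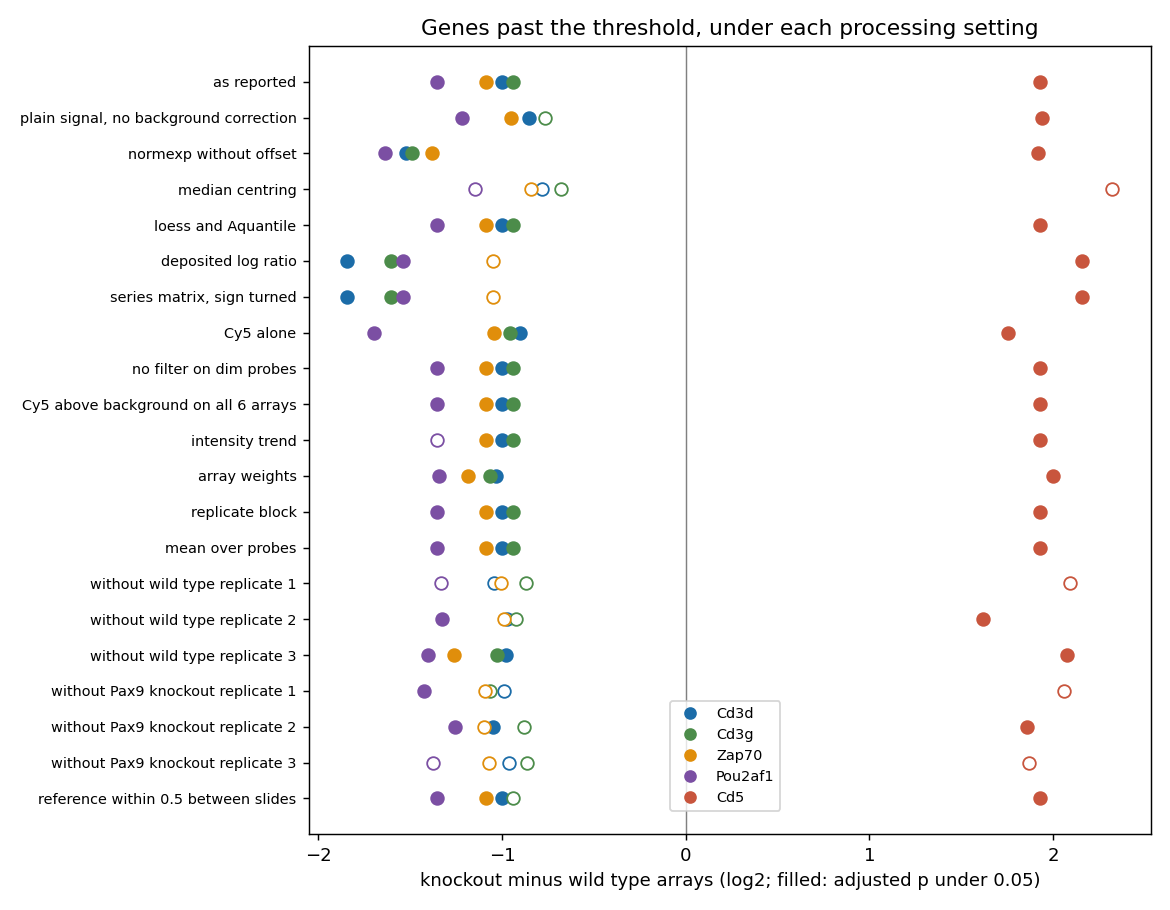
Difference of KO-labelled minus WT-labelled arrays on the log2 scale (x axis) for the 5 genes past the threshold, under each processing setting (y axis); filled points have an adjusted p under 0.05 and open points do not. Every point of Cd5 lies between 1.62 and 2.32 and every point of the other 4 genes lies below 0, while the rows for median centring, without wild type replicate 1 and without knockout replicate 3 hold open points alone.

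A wider list of 40 T and NK genes had 31 that were tested, and 1 passed the test, where 4.84% of all genes did. This gene, Cxcr6, a chemokine receptor of tissue T cells, read 0.35, 0.15 and 0.34 on WT-labelled arrays and -0.99, -0.93 and -0.87 on KO-labelled arrays (difference -1.21, SE 0.14, adjusted p = 0.011). Of the 31, 25 had a difference below 0 and 6 above it, where 51.5% of all genes lay above, and their median was -0.32. On WT-labelled arrays 28, 27 and 30 of the 31 were well above background, against 21, 26 and 24 on KO-labelled arrays. Some thus passed the filter on dim probes only through the WT-labelled arrays. The tally and the median are partly set by the filter, and nothing is read from them. Of a wider list of 24 B genes 19 were tested, and 1 passed, against the same 4.84% of all genes. This gene, Vpreb3, a protein of B cell precursors, read 0.16, 0.19 and -0.11 against -0.85, -1.16 and -1.12 (difference -1.12, SE 0.16, adjusted p = 0.021). Its other tested probe had -1.45 (SE 0.41, adjusted p = 0.095). The median over these 19 was -0.09.

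Of 15 tested pan-leukocyte genes, 2 fell, none rose and 13 missed the threshold, where 4.84% of all genes passed it: Cd52, a small glycoprotein of lymphocytes and other leukocytes, by 1.22 (SE 0.23, adjusted p = 0.036), and Arhgdib by 0.96 (SE 0.19, adjusted p = 0.044). Ptprc (CD45), carried by all leukocytes, read -3.76, -4.46 and -3.74 against -4.37, -5.34 and -4.43, with overlap (difference -0.72, SE 0.32, adjusted p = 0.23), and its other tested probes had differences of -0.07 and -0.32. The pan-leukocyte median was -0.33. Of 17 tested myeloid genes, 2 fell, none rose and 15 missed the threshold: Cd207 (langerin), the marker of Langerhans cells, had a difference of -3.35 (SE 0.37, adjusted p = 0.01) and Itgax (CD11c) one of -1.63 (SE 0.20, adjusted p = 0.013) with its brighter probe. The other tested Itgax probe, also above background on all 6 arrays, had 0.16 (SE 0.17, adjusted p = 0.6), so the Itgax probes differ in sign. The myeloid median was -0.42. The summed background-subtracted Cy5 signal of the pan-leukocyte genes was 9202 to 25850 on WT-labelled arrays and 10160 to 12880 on KO-labelled arrays. That of the myeloid genes was 23810 to 189600 and 44930 to 99210, without scaling for the brightness of the array. All of these pan-leukocyte genes but 1, on wild type replicate 1, and all of these myeloid genes were well above background on each of the 6 arrays. The summed signal of the 18 tested T and NK genes other than Cd5 was 1312 to 3038 and 1822 to 2160, and that of the 7 B genes 647 to 1394 and 592 to 727. The part of these cells in the lymphocyte values was not tested.

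Muscle genes varied widely between arrays of a group. Of 8 muscle genes none passed the test, but their median difference was 0.95, with Des at 0.91 (adjusted p = 0.4), Acta1 at 1.16 (adjusted p = 0.4) and Ckm at 1.00 (adjusted p = 0.43). The summed muscle signal in Cy5 was 40720, 191100 and 311300 on WT-labelled arrays and 223800, 725000 and 282200 on KO-labelled arrays. Of 8 squamous epithelial genes none passed, with a median of -0.21, Krt6a at -0.57 (adjusted p = 0.22), Krt13 at -0.34 (adjusted p = 0.4) and Sprr3 at -0.34 (adjusted p = 0.51). Their summed Cy5 signal was 680500 to 1797000 and 1297000 to 1598000. All 8 genes of both lists were well above background on every array, and their part in the lymphocyte values was not tested.

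Among genes that attract lymphocytes or keep them alive, 2 passed the test as higher, each with its brighter probe alone, and none as lower. Of 24 such genes 15 were tested, and their median difference was 0.19. Of all genes, 2.83% passed as higher and 2% as lower, and nothing is read from the 2 calls about the list. Icam1, the endothelial and epithelial ligand of the leukocyte integrin LFA-1, read 0.00, -0.10 and 0.02 on WT-labelled arrays and 0.59, 0.70 and 0.86 on KO-labelled arrays (difference 0.74, SE 0.14, adjusted p = 0.038). Its other tested probe had a difference of 0.11 (adjusted p = 0.77). Cxcl12, a chemokine of stromal cells, read -4.15, -4.00 and -4.10 against -3.51, -3.13 and -3.39 (difference 0.74, SE 0.16, adjusted p = 0.048), and its other tested probe had 0.32 (adjusted p = 0.46). Ccl17, a chemokine of dendritic cells that draws Ccr4-bearing T cells and was picked for its value, read 0.49, -0.56 and 1.35 against -1.36, -1.93 and -1.71. Its groups do not overlap, and the difference of -2.09 (SE 0.45) had an adjusted p of 0.052.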

How the data were processed

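The authors deposited Agilent scanner files with linear intensity values, made with Feature Extraction 10.7.3.1, per the file headers, while 9.1 is the version in the submitters' processing notes. The deposited flags of 0 or 1 mark outliers, saturation and signal well above background, per the file headers. The files also hold a log10 ratio of Cy5 over Cy3, computed by the authors' program after its background subtraction and dye normalization. The deposited series matrix holds log2 values that correlated with the scanner log2 ratio at -0.996 to -0.993 over probes, with slopes near -1, so they are log2 of Cy3 over Cy5 and their sign was turned. Its column medians were 0.016, -0.0061 and -0.021 for WT-labelled and 0.011, 0.0055 and 0.015 for KO-labelled arrays. How they were centred is not stated in these sources.

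Mean and background intensities were corrected with normexp (offset 50) and normalized by loess within each array (controls at weight 0). Controls were left out, flagged spots (55 to 164 per array) were set to missing, and spots were averaged per probe. A probe entered the test where its Cy5 was well above background, in most of its spots, on every array of WT-labelled or of KO-labelled samples. A gene was represented by the tested probe with the highest mean intensity. Symbols were updated through RefSeq (GRCm38.p6): 26918 probes by accession and 5899 by name, while 8357 kept the file's name, as did all members. Groups were compared by limma 3.58.1 in R 4.3.3, two-sided, without a covariate, with adjustment over all tested probes and a threshold of 0.05, and the procedure was tested on simulated data. Where no array of a group measured a probe well above background, no fold is given.

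The members and lists were chosen with earlier results of these data known. The genes named are all 31 members, each other list's genes past the threshold, otherwise its 3 with the smallest p, and Ptprc and Pax9. Every array's value is given for members past the threshold and for the 5 T and NK and 3 B members with the smallest p. Array values of Cd3e, Cd6 and Ccl17 were added after theirs were seen. Both groups carry replicate numbers 1, 2 and 3. Same-numbered arrays deviated together from their groups (correlations over genes of 0.14, 0.49 and 0.32, each over 0.1). Wild type replicate 1, however, correlated at 0.14 with knockout replicate 1 and at 0.16 with knockout replicate 3. The main test left pairing out, and the numbers served as a block in an alternative setting only. Whether same-numbered arrays belong together was not tested. Under a block on replicate number the calls of T and NK and of B genes were as many, while 1724 genes passed in all.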

Additional observations from a re-analysis of the deposited data

How the results depend on the processing

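No alternative turned the sign of a gene past the threshold, though several left its difference the same by construction. The 4 calls among T and NK genes became 0 with median centring, 11 with Cy5 alone and 9 with array weights, and the single B call became 0, 3 and 2, and 0 with an intensity trend. The 1007 calls over all genes became 120 with median centring (median of all genes 0.11), 571 with the deposited log ratio, 561 with the series matrix, 5958 with Cy5 alone, 558 with probes above background on all 6 arrays, 3557 with array weights, 1724 with the replicate block and 286 where the reference was within 0.5. Leaving out 1 array gave 0 to 4 T and NK calls, 0 to 1 B calls and 34 to 823 calls over all genes. The replicate block changed no other count by over 1.5 times. The T and NK median was -0.22 without background correction, -0.44 with the deposited ratio or series matrix, -0.041 without a filter on dim probes (24 genes), -0.25 with array weights and -0.18 as a mean over probes. The B median was -0.60 by normexp without offset, -0.65 with the deposited ratio or series matrix, -0.44 with Cy5 alone, -0.51 with all 6 arrays above background and -0.37 with array weights. Leaving out 1 array gave -0.34 to -0.13 for T and NK genes and -0.40 to -0.25 for B genes. Some genes that missed the threshold changed sign. With median centring Cd8a was -0.080, Cd7 -0.088, Cd27 -0.20, Gzmb -0.18 and Klrk1 -0.12. With the deposited ratio or series matrix Cd7 was -0.60 and Klrk1 -0.10. Ms4a1 was 0.034 with Cy5 alone, Cd27 -0.089 with array weights, and Cd8a -0.36 with all 6 arrays above background and -0.061 as a mean over probes. Leaving out 1 array gave -0.081 (without wild type replicate 3) to 0.37 for Cd79b, -0.11 to 0.0092 (without knockout replicate 1) for Cd22 and -0.058 (without knockout replicate 2) to 0.26 for Cd27. Apart from the changes of construction (fewer arrays or probes), the cause was not tested. A slide block was not run, since each slide holds 1 group. The brightness of the probe over background limits Cd247, Cd28, Ctla4, Gzma and Prf1, which were not tested.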
